A study of Homo sapiens with 6 samples.

Results

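Apolipoproteins are the protein components of the lipid particles that carry fat and cholesterol through blood, and 8 of their genes (APOA1, APOA2, APOB, APOC1, APOC3, APOE, APOH and APOM) are described here out of 57500 genes in the count tables. The 8 were picked by symbol, and each matched 1 Ensembl identifier in all 6 tables. The RNA came from mitochondria isolated from HepG2 cells (genotype labelled wild type), a human liver carcinoma line that makes and secretes lipoproteins and is widely used in place of hepatocytes. Cells had been kept for 48 h in medium with the solvent DMSO alone (control, 0 µM), with 10 µM GenX or with 100 µM GenX, a short-chain perfluoroalkyl substance, and each dose had 2 libraries. A kit isolated the mitochondria, ribosomal RNA was depleted from their total RNA, and stranded libraries were sequenced, all labelled as 1 batch. The stated purpose was to profile mitochondrial gene expression across doses. The labels did not say whether the replicates were separate cultures, so tests measured only the spread between these libraries, which may be technical.

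Hepatocytes assemble very-low-density lipoprotein around the large protein APOB in the endoplasmic reticulum, where ribosomes bound to its membrane make secreted proteins. High-density lipoprotein carries APOA1 and APOA2 as its main proteins. Smaller exchangeable apolipoproteins, among them APOC1, APOC3 and APOE, move between particles and steer their lipolysis and uptake. The mRNAs of these genes are transcribed in the nucleus and translated outside mitochondria, so their counts in a mitochondrial preparation come from RNA that was isolated along with the organelle.

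The genes lie on 6 chromosomes, given here in GRCh38 coordinates from the count tables. APOA2 is on chromosome 1 (161222292 to 161223631, minus strand), APOB on chromosome 2 (21001429 to 21044073, minus), APOM on chromosome 6 (31652416 to 31658210, plus) and APOH on chromosome 17 (66212033 to 66256525, minus). APOC3 (116829706 to 116833072, plus) and APOA1 (116835751 to 116837950, minus) are neighbours on chromosome 11, 2678 bases apart. APOE (44905754 to 44909393, plus) and APOC1 (44914247 to 44919349, plus) are neighbours on chromosome 19, 4853 bases apart. All 8 are protein-coding, and counts cover their exons, whose merged length ran from 866 bases in APOC3 to 14828 bases in APOB. APOM overlaps BAG6 on the opposite strand and APOA1 overlaps the antisense gene APOA1-AS, which had 0 counts in all libraries. APOB overlaps a gene listed only by its Ensembl identifier on the opposite strand. APOE and APOC1 overlap another such gene on their own strand. Both of these genes had 0 counts in all libraries. The strand setting of the counting was not given, so reads from opposite-strand partners cannot be told apart. How reads in a same-strand overlap were counted was not given either. APOC1 has a related pseudogene beside it, APOC1P1, with 0 counts throughout, and how reads that match both were handled was not given.

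The stretches before the starts of APOA2 and APOE are shown because these genes held the most counts of the 8. Both are reference sequence from RefSeq (GRCh38.p14), read 5′ to 3′ on the gene's strand, and both end before the outermost start in the count tables. APOA2 covers chr1:161223632-161223878 (minus strand) and APOE covers chr19:44905546-44905753 (plus strand). Capitals mark a match to TATATA.
APOA2: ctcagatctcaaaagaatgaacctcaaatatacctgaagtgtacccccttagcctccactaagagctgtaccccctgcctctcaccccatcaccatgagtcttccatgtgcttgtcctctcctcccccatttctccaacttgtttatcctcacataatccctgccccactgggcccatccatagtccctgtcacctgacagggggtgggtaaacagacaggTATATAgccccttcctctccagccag
APOE: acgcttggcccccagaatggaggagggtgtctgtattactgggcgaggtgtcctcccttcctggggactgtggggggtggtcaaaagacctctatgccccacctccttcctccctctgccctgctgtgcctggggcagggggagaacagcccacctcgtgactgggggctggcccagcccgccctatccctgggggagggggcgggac
RefSeq windows of 250 bases before the start were at hand for 5 of the 8 genes (APOA2, APOC1, APOE, APOH and APOM), with 3 alternative starts for APOE. Searched on both strands, TATAAA (the TATA box), AGGTCA (a half-site of nuclear receptors) and AAAGTCC (a core of HNF4A sites) matched in 0 of the 5 genes, while 10.7%, 12.1% and 3.20% of all 35116 windows held them. CCAAT matched in 2 of the 3 APOE windows, both times past the end of the printed stretch (32.0% of all windows). GTTAAT, a half-site of HNF1, matched in APOH (6.23%). The windows of APOC1, APOH and APOM, and 2 of the 3 APOE windows, lie inside the span of the gene in the count tables. Their bases are therefore not before its outermost start. TATATA, searched after the windows had been seen, matched in APOA2, 29 to 24 bases before its start, and in 3.73% of all windows. A match here describes letters and not a bound site.

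Library depth set what could be seen. The counts on nuclear genes numbered 230210 and 54502 in DMSO controls, 24505 and 11406 with 10 µM, and 2064527 and 1293961 at 100 µM. Genes of mitochondrial DNA took 4.35% and 10.4%, 43.7% and 61.1%, and 3.58% and 3.32% of all counts in those libraries. Levels are therefore given as nuclear CPM, the counts of a gene per 1000000 counts on nuclear genes, which leaves mitochondrial DNA genes out of the total. CPM of all counts is added for the member that passed a test. A gene with no count may still have reached the level of 3 counts, which was 13.0 and 55.0 nuclear CPM in DMSO controls, 122 and 263 with 10 µM, and 1.45 and 2.32 at 100 µM. Such limits and all binomial intervals cover counting error only. Less RNA in the cells and less of it carried into the preparation cannot be told apart in these data.

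APOA2, a main protein of high-density lipoprotein, was the most abundant member. It had 954 and 454 counts in DMSO controls, 4 and 2 with 10 µM, and 18293 and 11076 at 100 µM. In nuclear CPM this was 4144 and 8330 in DMSO controls, 163 and 175 with 10 µM, and 8861 and 8560 at 100 µM. Both 10 µM libraries thus lay below both controls, and both 100 µM libraries lay just above the higher control. In CPM of all counts the group means were 5712 ± 2473 in DMSO controls, 80.0 ± 16.8 at 10 µM and 8409 ± 189 at 100 µM (SD, n = 2 each). APOA2 fell at 10 µM against control, with a log2 fold change of -6.30 ± 0.82 (SE, edgeR quasi-likelihood, adjusted p = 0.0111), and was higher at 100 than at 10 µM by 6.32 ± 0.82 (adjusted p = 0.00323). The last value lay between 6.93 and 7.42 when any 1 library was left out and was 8.10 with a filter at a mean of 5 CPM, and both differences passed in each of these fits. At 100 µM against control the value was 0.02 ± 0.63 (adjusted p = 0.990), or -0.45 with DESeq2 size factors. When mitochondrial DNA genes were left out of the fit, the sizes were -6.32 and 6.53 and neither passed (adjusted p = 0.0577 and 0.0532), and with no low-count filter the 10 µM against control value did not pass either (-6.86, adjusted p = 0.0580).

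The APOA2 difference can also be read from the counts. In both comparisons with 10 µM the pooled folds below were smaller than the edgeR values, once those are taken out of the log2 scale. At the pooled share of DMSO controls, the 35911 nuclear counts of the 10 µM libraries would have held 178 APOA2 counts, and they held 6 (95% Poisson interval 2.20 to 13.1). The pooled share was 29.6-fold lower at 10 µM than in DMSO controls (95% counting interval 13.6 to 80.8), or 49.9-fold lower without control 1. It was 52.3-fold higher at 100 µM than at 10 µM (24.0 to 143). The pooled ratio of 100 µM to control was 1.77 (1.68 to 1.87), and 1.05 without control 1.

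APOA1, the activator of the enzyme that esterifies cholesterol on high-density lipoprotein, had 54 and 123 counts in DMSO controls, 0 and 0 with 10 µM, and 1312 and 765 at 100 µM. In nuclear CPM the controls had 235 and 2257, and the 100 µM libraries had 635 and 591, between the controls. At 10 µM the pooled level was at least 7.44-fold lower than in DMSO controls, with 3 counts over the group as the floor. This limit was 2.81 without control 2, 27.0 without control 1 and 2.36 without 10 µM replicate 1, and the 235 of control 1 lay under the 3-count level of 263 in 10 µM replicate 2. The edgeR test gave adjusted p = 0.108 for 10 µM against control, 0.608 for 100 µM against control and 0.0986 for 100 against 10 µM. At 10 µM against control APOA1 passed with a filter at a mean of 5 CPM (adjusted p = 0.0321). It also passed with only the 4 libraries compared (0.0407) and in DESeq2's Wald test (0.00518). Calls over all genes there numbered 95, 206 and 526, in place of 19. At 100 against 10 µM it passed in the same settings (0.0215, 0.0454 and 0.0437). Neither difference passed with DESeq2 size factors, library sizes alone, nuclear genes only, no filter or a replicate block.

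APOE, a ligand of the LDL receptor family that directs remnant particles to the liver, had the second most counts of the 8, after APOA2. It had 310 and 226 counts in DMSO controls, 1 and 5 with 10 µM, and 2097 and 1386 at 100 µM. In nuclear CPM this was 1347 and 4147 in DMSO controls, 40.8 and 438 with 10 µM, and 1016 and 1071 at 100 µM. The 3 groups did not overlap, with 10 µM lowest and the controls highest. APOE did not pass in edgeR's quasi-likelihood test (log2 fold changes of -4.93 ± 1.28, -1.79 ± 1.07 and 3.14 ± 1.20 for 10 µM against control, 100 µM against control and 100 against 10 µM, adjusted p = 0.113, 0.391 and 0.130). At 10 µM against control it passed with a replicate block (adjusted p = 0.0364), with only the 4 libraries compared (0.0357) and in DESeq2's Wald test (0.00139). In these settings calls over all genes numbered 75, 206 and 526, in place of 19. In that comparison APOE did not pass with DESeq2 size factors, library sizes alone, nuclear genes only, no filter or a mean of at least 5 CPM. The 10 µM level was a pooled 11.3-fold below the controls (5.14 to 30.8), 24.8-fold without control 1, 4.29-fold without 10 µM replicate 1 and 46.1-fold without 10 µM replicate 2. Replicate 2 held 5 of the 6 APOE counts at that dose, and without it the edgeR value against control was -7.24.

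APOC1, the neighbour of APOE and an inhibitor of particle uptake and of cholesteryl ester transfer, followed another order. It had 3 and 1 counts in DMSO controls, 0 and 0 with 10 µM, and 268 and 127 at 100 µM. In nuclear CPM this was 13.0 and 18.3 in DMSO controls and 130 and 98.1 at 100 µM, with the 10 µM libraries at 0. Their 3-count levels of 122 and 263 were above both controls, and 122 lay between the 100 µM libraries and 263 above both. The pooled level at 100 µM was 8.37-fold that of DMSO controls (3.24 to 30.9), but edgeR gave 2.32 ± 1.37 on the log2 scale with adjusted p = 0.389 (0.334 at 10 µM against control and 0.130 at 100 against 10 µM). At 10 µM a level like that of DMSO controls would have given 0.505 counts, so a difference between these groups was not detectable at this depth.

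**Figure D1:**
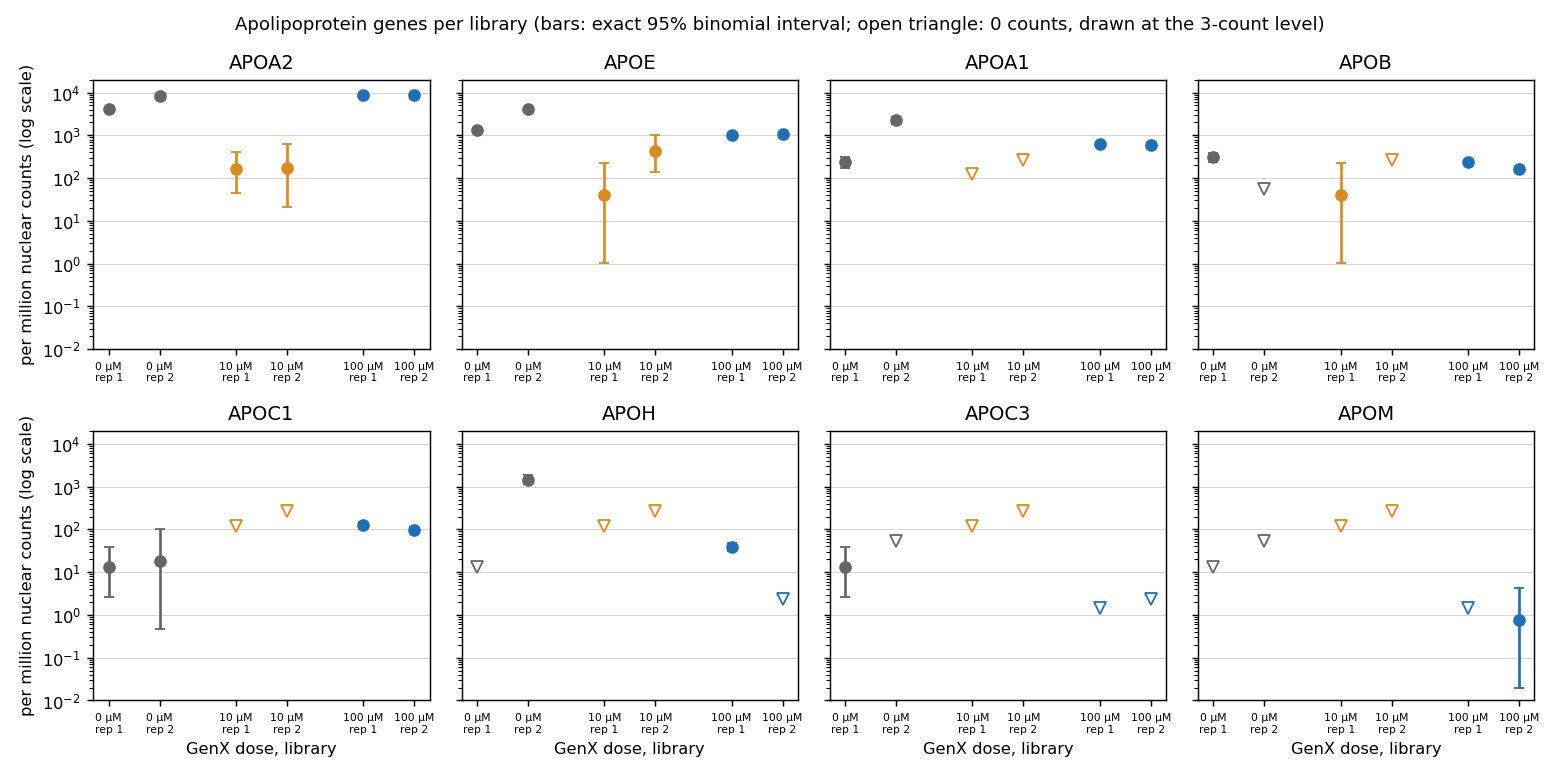
Level of each of the 8 apolipoprotein genes in each library, in nuclear CPM on a log axis, with exact 95% binomial intervals; open triangles mark 0 counts at the level of 3 counts. APOA2 sits at 4144 to 8861 in the control and 100 µM libraries and at 163 and 175 at 10 µM, while APOH has counts in only 1 control and 1 library at 100 µM.

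APOB, the non-exchangeable scaffold of very-low-density and low-density lipoprotein, was scarce for a gene of its length. It had 72 and 0 counts in DMSO controls, 1 and 0 with 10 µM, and 503 and 210 at 100 µM. In nuclear CPM the values were 313 and 0, 40.8 and 0, and 244 and 162 in the same order. The controls overlapped both dosed groups, and no test passed (adjusted p = 0.268 at 10 µM against control, 0.903 at 100 µM against control and 0.277 at 100 against 10 µM). The edgeR value for 10 µM against control was -4.01, and it turned to 5.91 without control 1, which held all 72 control counts.

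APOH, a phospholipid-binding plasma protein also called beta-2-glycoprotein I, had counts in only 2 libraries. Control 2 had 80 counts and the first 100 µM library had 81, while the other control, both 10 µM libraries and the other 100 µM library had 0. In nuclear CPM these were 1468 and 39.2, while the other library of each group had a floor of 13.0 (control 1) and 2.32 (100 µM), so the replicates of a group stood far apart. The low-count filter of the main edgeR fit removed APOH. APOC3, an inhibitor of lipoprotein lipase encoded beside APOA1, had 3 counts in control 1 and 0 in the other 5 libraries, including 0 of 3358488 nuclear counts at 100 µM. APOM, a lipocalin of high-density lipoprotein that carries sphingosine-1-phosphate, had 1 count in all, in the second 100 µM library, while BAG6 on the opposite strand had 33 and 8 counts in DMSO controls and 673 and 277 at 100 µM. APOC3 and APOM were removed by the same filter, and with no filter none of the 3 passed in any comparison.

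Levels of different genes are compared per kilobase of exon. At 100 µM the mean nuclear CPM per kilobase was 9217 for APOA2, 476 for APOE, 431 for APOA1, 92.6 for APOC1, 14.7 for APOH and 13.7 for APOB. In DMSO controls it was 6600 for APOA2, 1254 for APOE, 875 for APOA1, 551 for APOH, 12.7 for APOC1 and 10.5 for APOB. At 100 µM APOE (464 and 489) and APOA1 (446 and 415) were close to each other without overlapping, and APOC1 (105 and 79.7) was apart from both neighbours. APOH (29.5 and 0) and APOB (16.4 and 10.9) overlapped there. In DMSO controls APOE (615 and 1893), APOA1 (165 and 1585) and APOH (0 and 1102) overlapped, and APOC1 (10.6 and 14.9) and APOB (21.1 and 0) did as well. APOA2 stood above every other member in each control and each 100 µM library.

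APOA2 made up 68.3% and 51.4% of the summed counts of the 8 genes in DMSO controls, and 81.1% and 81.7% at 100 µM. With 10 µM it made up 66.7% and 28.6%, and APOE made up 71.4% in the second of these libraries. The 8 genes took 0.606% of nuclear counts in control 1 (exact 95% interval 0.575 to 0.639). Control 2 gave them 1.62% (1.52 to 1.73). The 10 µM libraries held 0.0245% (0.00899 to 0.0533, 6 counts) and 0.0614% (0.0247 to 0.126, 7 counts). The 100 µM libraries held 1.09% (1.08 to 1.11) and 1.05% (1.03 to 1.07). The mean at 10 µM was 0.0429% ± 0.0261 against 1.11% ± 0.718 in DMSO controls (SD, n = 2 each), a difference of -1.07 percentage points. The mean at 100 µM was 1.07% ± 0.0312, -0.0438 points from the control mean and 1.03 points above 10 µM. The exact two-sided permutation test gave p = 0.333 for both comparisons with 10 µM, the smallest that 2 against 2 libraries allow, and p = 1 for 100 µM against control. The last difference was smaller than the spread between the controls, and it turned to 0.464 points without control 2.

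**Figure D2:**
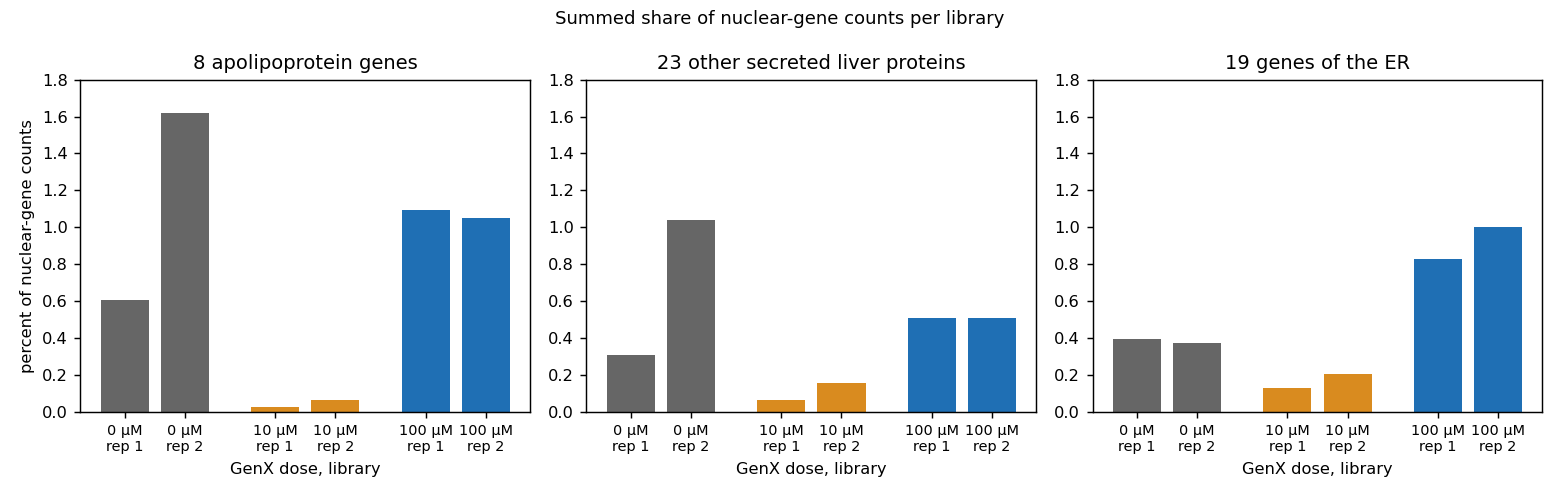
Summed percent of nuclear-gene counts in each library for the 8 apolipoprotein genes, 23 other proteins secreted by the liver, and 19 genes of protein entry and folding in the endoplasmic reticulum (ER); each bar is 1 library. The apolipoprotein bars stand at 0.0245 and 0.0614% at 10 µM and between 0.606 and 1.62% elsewhere.

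The members were set against all tested genes. A low-count filter kept 3180 genes and 5 of the 8 members (APOA1, APOA2, APOB, APOC1 and APOE), so counts over these 5 describe genes that had enough reads in some group. At 10 µM against control, 1 member passed, APOA2, which was lower; 0.597% of all tested genes passed and 0.377% were lower (0.220% higher). In the fit of nuclear genes alone 0 members and 0.0288% of genes passed. The median log2 fold change was -6.30 over the 5 members and -3.18 over all tested genes, and APOA2 lay 3.13 below that median. Fitted values of genes without a count in a group are no measure of size. With such genes at their 3-count bound, 2 members and 1426 of 3145 nuclear genes, the medians were -4.01 for the members and -0.072 for nuclear genes. Such a bound turns positive where the controls held few counts. These 2 medians are therefore no measure of how far members and nuclear genes differed. The -4.01 is the value of APOB, which did not pass (edgeR adjusted p = 0.268). Of the 5 tested members, 4 (APOA1, APOA2, APOC1 and APOE) had both 10 µM libraries below both controls in nuclear CPM when 0 counts were read as 0. APOC3, APOH and APOM, which the filter removed, overlapped there. The share was 32.0% of the tested nuclear genes, while 0 members and 11.1% of those genes had both above both. With 0 counts read as 3 counts, 2 members (APOA2 and APOE) and 8.01% of those genes had both below both. APOA1 and APOE also passed without control 1 (adjusted p = 0.00633 and 0.00797), where calls over all genes numbered 361 in place of 19, and APOA1, APOB and APOE without control 2 (0.00357, 0.0205 and 0.000517), where they numbered 861. Each of these fits has 1 control library, which is assumed to vary like the other groups.

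At 100 against 10 µM, 1 member passed, again APOA2, which was higher; 2.86% of all tested genes passed, 0.755% higher and 2.11% lower. The median was 6.32 over the 5 members and 3.52 over all tested genes. With genes at their bound it was 3.14 over the members and 0.82 over nuclear genes, with the same limit as above. The same 4 members and APOB, thus all 5 tested members, had both 100 µM libraries above both at 10 µM when 0 counts were read as 0. The share was 63.8% of the tested nuclear genes, while 0 members and 7.63% of those genes had both below both. With 0 counts read as 3 counts, 3 members (APOA1, APOA2 and APOE) and 22.1% of those genes had both above both. At 100 µM against control 0 members passed in edgeR, where 0.00% of all tested genes passed. There 0 of the 5 members and 573 of all genes had an unadjusted p under 0.05, and DESeq2's Wald test called 0 members and 220 genes. The member median was -0.51 and that of all genes 0.35. APOA2 and APOC1 had both 100 µM libraries above both controls (48.3% of tested nuclear genes had this, and 45.2% with 0 counts read as 3 counts) and APOE had both below (9.57%). These comparisons share their libraries in pairs, so their values for a gene are not independent of each other.

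**Figure D3:**
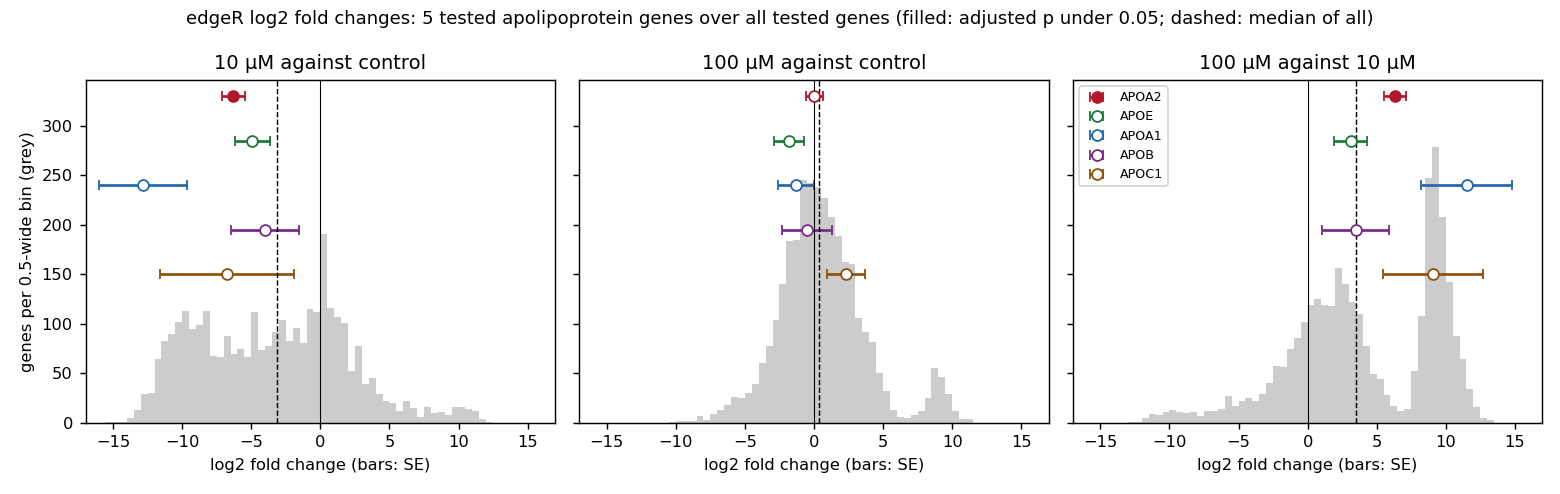
Log2 fold changes from edgeR for the 5 tested apolipoprotein genes (points with SE, filled where the adjusted p was under 0.05) over the histogram of all 3180 tested genes, with a dashed line at the median of all genes. APOA2 is filled at -6.30 and 6.32 in the outer panels; APOA1 and APOC1 had 0 counts at 10 µM, so their position there depends on the fit's prior count.

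Ratios between members within a library do not depend on any scaling. For every 100 APOA2 counts there were 11.5 and 12.5 APOE counts at 100 µM, against 32.5 and 49.8 in DMSO controls, so the control mean was 3.43 times the 100 µM mean. APOC1 stood the other way round, with 1.47 and 1.15 counts per 100 APOA2 counts at 100 µM, against 0.314 and 0.220 in DMSO controls, which rested on 3 and 1 APOC1 counts. Neither pair of groups overlapped, and each gave p = 0.333 in the exact permutation test, its smallest value. APOA1 had 7.17 and 6.91 per 100 at 100 µM, against 5.66 and 27.1 in DMSO controls, and overlapped. APOB had 2.75 and 1.90 at 100 µM, against 7.55 and 0 in DMSO controls, and overlapped too. At 10 µM the 4 and 2 APOA2 counts were too few for such ratios.

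**Figure D4:**
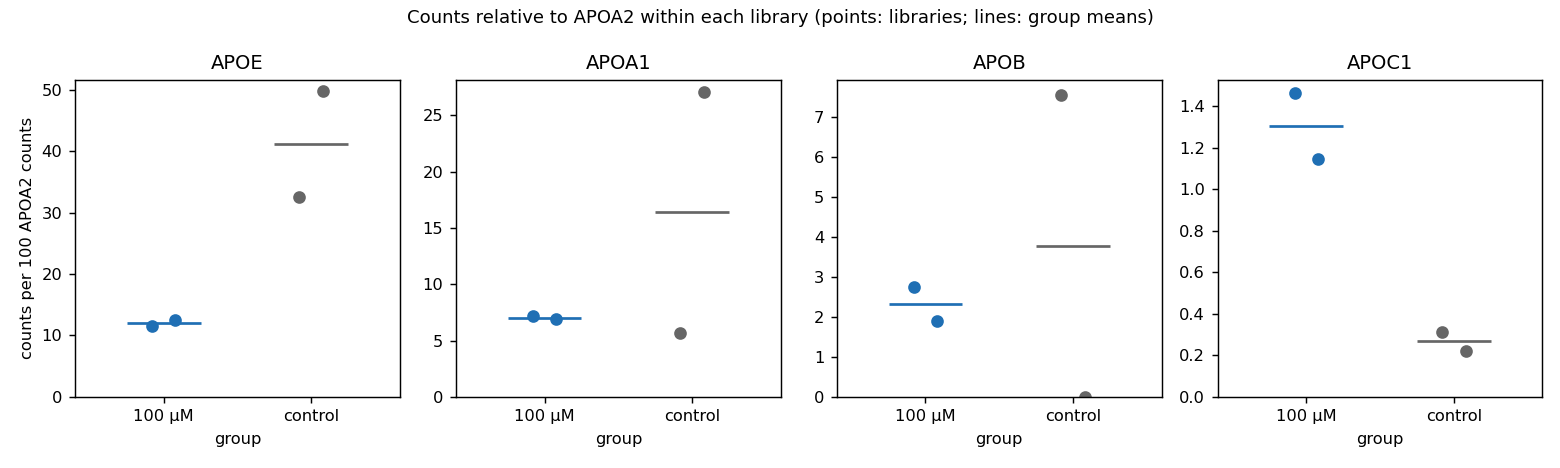
Counts of APOE, APOA1, APOB and APOC1 per 100 APOA2 counts in each library, at 100 µM (left) and in DMSO controls (right), with lines at the group means; each panel has its own axis. APOE lies at 11.5 and 12.5 at 100 µM and at 32.5 and 49.8 in DMSO controls, while APOA1 and APOB overlap between the groups.

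Summed over a list, other proteins that hepatocytes secrete were lowest in the same libraries. The 23 listed genes (albumin, transferrin, SERPINA1 and others) took 0.308% and 1.04% of nuclear counts in DMSO controls, 0.0612% and 0.158% with 10 µM, and 0.506% and 0.506% at 100 µM. The ratio of apolipoprotein counts to theirs was 1.97 and 1.56 in DMSO controls. With 10 µM it was 0.400 and 0.389, from 6 over 15 and 7 over 18 counts, too few for a precise ratio. At 100 µM it was 2.16 and 2.07, above both controls, while the ratio to the counts of 19 ER genes was 1.32 and 1.05 at 100 µM, against 1.55 and 4.33 in DMSO controls, so below both. Each gave p = 0.333 in the exact permutation test of 100 µM against control, its smallest value. Of 8 tested genes of this list 0 passed in any comparison in edgeR, with 6, 1 and 3 at an unadjusted p under 0.05 in the order 10 µM against control, 100 µM against control and 100 against 10 µM. IGFBP1, which binds insulin-like growth factors, had 1003 and 440 nuclear CPM in DMSO controls, 0 and 175 with 10 µM and 1792 and 1268 at 100 µM. SERPINA1, the inhibitor of neutrophil elastase, had 917 and 550 nuclear CPM in DMSO controls, 245 and 175 with 10 µM and 1355 and 1398 at 100 µM. Some genes of the list did not follow the sum, among them FGG, FGB and GC. FGG had 1 and 0 counts in DMSO controls, 0 and 8 with 10 µM and 87 and 0 at 100 µM. FGB had 0 and 0, 4 and 0, and 7 and 9 counts in the same order. The only GC count was in the second 10 µM library.

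These markers also check the cell type. Of the 23 hepatocyte genes 21 had a count in some library, while FGA and A1BG were at 0 in all 6, and AFP, a marker of hepatocellular carcinoma lines, had 78 and 18 counts at 100 µM and 0 in the other 4 libraries. Of 13 markers of other cell types 9 had a count, and PTPRC, MS4A1, CD68 and DES were at 0 in all libraries. Their summed share was 0.0226% and 0.0257% in DMSO controls, 0.0367% and 0.140% with 10 µM, and 0.00397% and 0.00355% at 100 µM. The 2 with the highest level were the collagen gene COL1A1, with 50 and 6 counts in DMSO controls, 6 and 6 with 10 µM and 67 and 42 at 100 µM, and insulin (INS), with 7 counts in 1 library at 10 µM. In the 10 µM libraries 6 and 8 of the 23 hepatocyte genes had a count, with 15 and 18 counts in sum. The 13 markers of other cell types had 9 and 16 counts there. These are too few to check the cell type at 10 µM.

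RNAs kept in the nucleus also fell at 10 µM. MALAT1 and NEAT1 together took 14.5% and 6.08% of nuclear counts in DMSO controls, 0.0857% and 0.140% with 10 µM, and 3.47% and 3.18% at 100 µM. Both passed in edgeR at 10 µM against control (log2 fold changes of -8.15 for MALAT1 and -6.15 for NEAT1, adjusted p = 0.00130 and 0.0153) and at 100 against 10 µM (5.68 and 5.24, adjusted p = 0.00246 and 0.00860). With mitochondrial DNA genes left out of the fit, MALAT1 at 10 µM against control passed (adjusted p = 0.00962), while NEAT1 there (0.0577) and both at 100 against 10 µM (0.0532 each) did not. NEAT1 had 4140 and 9321 nuclear CPM in DMSO controls, 163 and 263 with 10 µM, and 4860 and 4900 at 100 µM. The part of differing amounts of nuclear and cytosolic RNA between preparations in the apolipoprotein values was not tested.

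Genes that act with apolipoproteins were mostly thin in counts. Of 17 other genes of apolipoprotein families 10 had a count and 3 were tested, with 0 passing in any comparison (1, 0 and 1 at an unadjusted p under 0.05). APOL1, which lyses trypanosomes in human serum, had 95.6 and 220 nuclear CPM in DMSO controls, 0 and 263 with 10 µM and 196 and 201 at 100 µM. APOL2, an intracellular relative, had 778 and 0 nuclear CPM in DMSO controls, 0 with 10 µM, and 139 and 180 at 100 µM. In the APOA1 cluster APOA4 had 16 and 3 counts in DMSO controls, 0 with 10 µM and 34 and 9 at 100 µM, and in the APOE cluster APOC2, the cofactor of lipoprotein lipase, had 5 and 1 counts at 100 µM and 0 elsewhere.

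Of 17 genes of lipoprotein assembly and export 6 were tested and 0 passed (0, 1 and 2 at an unadjusted p under 0.05). MTTP, which loads lipid onto APOB, had 0 counts in every library. P4HB, the protein disulfide isomerase that is its partner subunit, had 209 and 1339 nuclear CPM in DMSO controls, 979 and 87.7 with 10 µM and 1225 and 1104 at 100 µM, so the groups overlapped. SAR1A, a GTPase of vesicles that leave the endoplasmic reticulum, had 1090 and 18.3 nuclear CPM in DMSO controls, 81.6 and 0 with 10 µM and 38.3 and 106 at 100 µM. The 19 genes of protein entry and folding in the endoplasmic reticulum took 0.392% and 0.374% of nuclear counts in DMSO controls, 0.127% and 0.202% with 10 µM, and 0.829% and 1.00% at 100 µM. Of 18 tested 0 passed (5, 3 and 6 at an unadjusted p under 0.05). Their chaperone HSPA5 had 56.5 and 55.0 nuclear CPM in DMSO controls, 490 and 438 with 10 µM and 1425 and 1944 at 100 µM. HSP90B1 had 734 and 734 nuclear CPM in DMSO controls, 81.6 and 438 with 10 µM and 2123 and 2050 at 100 µM.

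Of 12 genes that remodel lipoproteins in plasma 1 was tested, ANGPTL4, a secreted inhibitor of lipoprotein lipase. It was higher at 100 µM than in the 10 µM libraries by 5.71 ± 1.29 on the log2 scale (edgeR quasi-likelihood, adjusted p = 0.0408) and did not pass at 10 µM against control (-5.79 ± 1.29, adjusted p = 0.0813). With mitochondrial DNA genes left out it did not pass at 100 against 10 µM either (adjusted p = 0.0587). It had 1 and 1 counts at 10 µM. PLTP, which transfers phospholipid between particles, had 1 and 80 counts in DMSO controls, 0 with 10 µM and 18 and 2 at 100 µM. Of 20 receptors and lipid transporters 11 were tested and 0 passed (4, 1 and 5 at an unadjusted p under 0.05). ABCA1, which loads cholesterol onto APOA1, had 463 counts in control 1, 0 in control 2 and at 10 µM, and 196 and 202 at 100 µM. SDC1, a proteoglycan that binds remnant particles, had 213 and 22, 0 and 0, and 602 and 603 counts from the controls to 100 µM. Of 22 transcription factors known to act on apolipoprotein genes 5 were tested and 0 passed (1, 1 and 0 at an unadjusted p under 0.05). RXRA, the shared partner of lipid-sensing nuclear receptors, had 30.4 and 257 nuclear CPM in DMSO controls, 1347 and 701 with 10 µM and 26.2 and 96.6 at 100 µM, so it was highest at 10 µM. CEBPB had 117 and 0 nuclear CPM in DMSO controls, 0 and 87.7 with 10 µM and 351 and 284 at 100 µM.

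The genes whose pattern over the 6 libraries was most like that of the 8 summed members were ANGPTL4, NDRG1, SLC2A1, HSP90AB1 and MDK. Likeness was the root-mean-square difference of log2(nuclear CPM + 10), each gene centred on its mean, over 2144 protein-coding genes with at least 10 counts and a mean of at least 100 nuclear CPM. It was 0.203 for ANGPTL4, 0.327 for NDRG1, 0.331 for SLC2A1, 0.369 for HSP90AB1 and 0.413 for MDK, beside a median of 2.49. NDRG1, a stress-response gene, had 6816 and 16898 nuclear CPM in DMSO controls, 163 and 526 with 10 µM and 9532 and 14585 at 100 µM. SLC2A1, the glucose transporter GLUT1, had 1338 and 2220 nuclear CPM in DMSO controls, 40.8 and 87.7 with 10 µM and 1198 and 1689 at 100 µM. HSP90AB1, a cytosolic chaperone, had 1590 and 2532 nuclear CPM in DMSO controls, 81.6 and 175 with 10 µM and 2460 and 2643 at 100 µM. MDK, a secreted growth factor, had 165 and 404 nuclear CPM in DMSO controls, 0 with 10 µM, and 313 and 360 at 100 µM. The measure describes these 6 libraries and rests on a few counts at 10 µM.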

How the data were processed

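The authors deposited unnormalized whole-number read counts for each gene, 1 table per library in the layout of featureCounts. Per the submitters' processing notes the tools were FastQC, STAR, featureCounts and DESeq2 with GRCh38, without versions. Which annotation release and strand setting were used, and how reads with several mappings were counted, is not given in the sources used here. Each table listed 57500 genes with their exon length and 0 lines naming no gene. Symbols and gene types for 56898 of them came from GENCODE v29 and a table of gene names, and 0 columns were left without a sample. Totals ran from 29350 to 2141282 counts, a 73.0-fold range that limits the precision at 10 µM most.

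Groups and replicate numbers came from the sample titles. Libraries of a dose differed by more than sampling noise (chi-square divided by its degrees of freedom, genes with 10 counts or more: 39.4 for control, 12.9 for 10 µM, 35.2 for 100 µM). All 6 libraries entered 1 fit in edgeR 4.0.16 (R 4.3.3) with filterByExpr, TMM scaling and robust quasi-likelihood tests, two-sided, adjusted by Benjamini-Hochberg over 3180 genes at 0.05. Each SE of an edgeR log2 fold change was the absolute log2 fold change divided by the square root of its F statistic. Shares were compared by exact permutation tests. Intervals are exact 95% binomial, Poisson or conditional binomial ones (scipy 1.17.1), and floors are 3 counts. The code was tested on simulated data. The members and lists were chosen with earlier results of these data known. All members are named, and in each of 9 other lists the 2 genes with the highest mean CPM and any that passed; APOA4, APOC2, MTTP, AFP and genes at 0 were added after their values were seen. Alternatives were DESeq2 size factors, library sizes alone, nuclear genes only, DESeq2 1.42.0's Wald test, no filter or a mean of at least 5 CPM, the 4 libraries compared, a replicate block, other denominators and leaving out each library.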

Additional observations from a re-analysis of the deposited data

How the results depend on the processing

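Of the 8 members, 1 passed at 10 µM against control, 0 at 100 µM against control and 1 at 100 against 10 µM. The count at 10 µM against control was 0 with nuclear genes only and with no filter, 2 with a mean of at least 5 CPM, 2 with the replicate block, 3 with only the 4 libraries compared and 3 in DESeq2's Wald test, and 1 to 4 without 1 library. At 100 against 10 µM it was 0 with nuclear genes only, 2 with a mean of at least 5 CPM, 2 with the 4 libraries compared, 2 in the Wald test and 1 to 4 without 1 library (3 without control 1, 4 without control 2). At 100 µM against control it was 0 in each alternative, also without any 1 library. Deviations of same-numbered libraries correlated at 0.000331, 0.00315 and -0.0222 over 3180 genes. Replicate numbers thus showed no pairing of the libraries, but noise at low counts could hide one. Over all genes the calls of 19, 0 and 91 were 15, 4 and 79 after scaling by DESeq2 size factors, 7, 0 and 128 when only library sizes scaled the counts, 1, 0 and 0 with nuclear genes only, 7, 0 and 3 with no filter, 95, 0 and 291 with a mean of at least 5 CPM, 75, 22 and 136 with the replicate block, 206, 0 and 258 with the 4 libraries compared, and 526, 220 and 374 in the Wald test. Without 1 library they ran from 4 to 861, 0 to 204 and 16 to 1272. The 7 higher and 12 lower at 10 µM against control became 8 and 7 under the size factors of DESeq2 and 0 and 7 under library sizes alone, while the median of all genes was -3.18, -2.66 and -2.64. The 24 higher and 67 lower at 100 against 10 µM became 6 and 73, and 42 and 86, with medians of 3.52, 2.54 and 3.66, and at 100 µM against control the medians were 0.35, -0.055 and 1.02. Fold changes that changed sign were all at 100 µM against control except APOB at 10 µM (5.91 without control 1). They were APOA2 (-0.45 with DESeq2 size factors and in the Wald test), APOA1 (0.77 without control 2, lowest -1.52) and APOB (0.38 with library sizes alone, 0.036 with no filter, 0.40 with a mean of at least 5 CPM, 1.44 with the replicate block, 10.16 without control 1 and 0.39 without the second 100 µM library). APOB without 1 library ran from -1.24 to 10.16 there and from -10.46 to 5.91 at 10 µM. The summed share at 100 µM against control was 0.0171 points with all counts as the denominator and -0.552 to 0.464 without 1 library, the highest without control 2. Pooled folds without 1 library, and separations with 0 counts read as 3 counts, were chosen after seeing the data. Without 1 library the share difference ran from -1.58 to -0.563 at 10 µM against control and from 1.01 to 1.05 at 100 against 10 µM. APOC1 in some alternatives, and APOB and APOC1 at 10 µM against control with the 4 libraries compared, were removed by the filter and gave no value. The causes were not tested. Depth limits every statement at 10 µM, where the members had 13 counts.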
